A study of Mus musculus with 32 samples.

Results

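Clca3b, Clca3a2, Gabrp, Chst4, Vwa5b1, Blk and Myh15 are 7 mouse genes whose transcripts were much scarcer in AML12 cells given DEX than in control cells. They were picked by symbol as large falls after DEX at 17 h or 25 h that are neither clock nor chemokine genes, out of 27843 genes in the AML12 table. The size of the fall therefore chose them, and every comparison of DEX with control for these 7 genes is given as a description, without a p-value. All 7 were kept by the low-count filter in AML12, where 14114 genes were tested, so no member is missing from the values that follow. Clca3a2 passed that filter only through the control cells at 25 h and Myh15 only through the control cells of both times.

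The series holds 32 RNA-seq libraries in 8 groups of 4. AML12, a mouse line labelled as hepatocytes, was sampled with DEX treatment and with control treatment, each at 17 h and at 25 h. HL-1, a mouse line labelled as cardiomyocytes, was kept in medium that AML12 cultures had conditioned and sampled at 16 h and 28 h; this was conditioned medium (CM) from cultures with DEX synchronization, or control medium from cultures without it. The sample descriptions also call the times ZT17 and ZT25 in AML12 and ZT16 and ZT28 in HL-1. The labels do not expand DEX and name neither a dose nor the start of treatment, so the hours may not be hours of exposure. They also do not say whether replicates are separate cultures, so the p-values measure the spread between these libraries, which may be technical. Each line stands for 1 cell line only, and all HL-1 groups received medium that AML12 cells had been in. Library totals were 15.0 to 17.5 M counts (M for mega) in AML12 and 15.7 to 19.3 M in HL-1. Levels are given as CPM, counts divided by the scaled library total in mega counts, and changes as log2 fold changes of DEX over control with the SE of the edgeR fit.

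The 7 genes belong to unrelated families. Clca3b and Clca3a2 are close paralogs of the CLCA family, secreted or surface proteins with a metalloprotease and a von Willebrand factor A (VWA) domain that modulate calcium-activated chloride currents and are best known from mucus-forming epithelia. Gabrp encodes the pi subunit of the GABA-A receptor, a ligand-gated chloride channel, and is found in epithelia outside the brain more than in neurons. Chst4 encodes a sulfotransferase that adds sulfate to N-acetylglucosamine in glycoproteins, including ligands of L-selectin. Vwa5b1 encodes a VWA domain protein of little known function, Blk a Src-family tyrosine kinase of the B lineage, and Myh15 a myosin heavy chain. None of these is a classical hepatocyte product.

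The genes lie on 6 chromosomes, and 6 of them are on the minus strand (GRCm38, GENCODE M21). Clca3a2 (chr3:144796559-144819494) and Clca3b (chr3:144822623-144849357) are neighbours, 3.13 kb apart. Gabrp is at chr11:33550781-33578959, Chst4 at chr8:110029153-110039740, Vwa5b1 at chr4:138565360-138635884, Blk at chr14:63372836-63417037, and Myh15 at chr16:49057486-49199104 on the plus strand. Only 3 of the 7 overlap another annotated gene, and those 3 partners held 6, 0 and 0 counts over the 16 AML12 libraries, next to Clca3b, Clca3a2 and Vwa5b1 in that order.

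Promoter windows of 300 bases, from 250 before to 50 after the RefSeq start, were read for 5 of the 7 genes (GRCm38.p6). Those of Clca3a2 and Blk were not analysed here. RefSeq starts can differ from the M21 positions given above. The windows of Chst4 and Vwa5b1 (chr4:138623943-138624242) lie wholly inside the M21 gene spans. That of Myh15 (chr16:49057150-49057449) lies wholly before its span. Matches, missing matches and distances therefore hold for these RefSeq windows only. The windows of Clca3b and Chst4 are shown because each holds an AP-1 site at nearly the same distance from its RefSeq start. Capitals mark the motif matches, which are the octamer followed by the AP-1 site in Clca3b and the AP-1 site in Chst4.
Clca3b (chr3:144849253-144849552, - strand): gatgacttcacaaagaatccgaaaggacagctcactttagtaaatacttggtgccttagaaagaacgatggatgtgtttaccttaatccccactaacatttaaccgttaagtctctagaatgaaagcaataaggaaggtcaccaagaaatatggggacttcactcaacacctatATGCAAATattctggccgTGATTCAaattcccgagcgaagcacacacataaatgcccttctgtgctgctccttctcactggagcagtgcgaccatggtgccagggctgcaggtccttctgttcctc
Chst4 (chr8:110039285-110039584, - strand): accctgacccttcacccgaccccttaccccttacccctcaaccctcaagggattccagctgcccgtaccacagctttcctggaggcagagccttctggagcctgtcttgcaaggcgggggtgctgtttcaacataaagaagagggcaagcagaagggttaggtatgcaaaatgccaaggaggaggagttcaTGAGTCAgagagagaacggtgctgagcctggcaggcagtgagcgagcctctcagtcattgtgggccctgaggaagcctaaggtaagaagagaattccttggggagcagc

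AP-1 is a Fos and Jun family transcription factor, and its letters TGANTCA were searched on both strands. The match TGATTCA lies at -58 in Clca3b, and TGAGTCA lies at -59 in Chst4. AP-1 letters stand in 7.81% of the 32817 promoter windows of the RefSeq table. The Clca3b window also holds the octamer ATGCAAAT, a site of POU factors, at -76, against 1.74% of all windows. Neither the palindrome GNACANNNTGTNC of the glucocorticoid receptor (0.475% of windows) nor the inverted repeat CTCCNGGAGA (0.737%) was matched in any of the 5 windows, and the same was true of the E-box CACGTG (7.15%), the D-box TTATGTAA (0.935%) and the kappaB consensus of NF-kB (4.5%). The TATA letters TATAAA (13.6% of windows) were matched in the Myh15 window only, far upstream at -237. The motifs were chosen with the sequences in view, and a match describes letters, not binding. G and C made up 33.7 to 56.3% of the 5 windows, below the median of 52.7% over all windows in 4 of them.

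In control cells at 17 h the genes covered a wide range of levels. Per kilobase of exonic length, Gabrp was the most abundant at 8.80 ± 0.408 CPM per kb (mean ± SD, n = 4), followed by Clca3b at 4.35 ± 0.245 and Chst4 at 2.61 ± 0.171 CPM per kb. Blk came next at 1.12 ± 0.215 CPM per kb, then Vwa5b1 at 0.358 ± 0.0650, Myh15 at 0.255 ± 0.0419 and Clca3a2 at 0.165 ± 0.0346 CPM per kb. The median of all tested genes was 5.77 CPM per kb, so only Gabrp lay above it. At 25 h the order in control cells was another, with Clca3b on top at 12.6 ± 1.41 CPM per kb. In DEX cells at 17 h no member was above 1.03 ± 0.217 CPM per kb, the level of Gabrp.

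Clca3b showed the deepest fall among the members with more than a few reads. It had 0.665, 1.52, 1.04 and 0.494 CPM in the DEX libraries at 17 h, against 14.2, 14.2, 14.3 and 15.9 CPM in the controls. At 25 h the DEX libraries held 8.27, 9.06, 10.4 and 4.03 CPM and the control libraries 37.6, 42.7, 40.0 and 48.7 CPM. Every DEX library lay below every control of its time, and the highest DEX library of 25 h was below the lowest control of 17 h. The log2 fold change was -3.97 ± 0.25 at 17 h, a level of 6.35% of control, and -2.41 ± 0.15 at 25 h, a level of 18.8% of control. No other gene among the 14114 tested had a lower fold change at 25 h.

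Clca3a2, its neighbour, was read far less often, and its values are counts. The 4 DEX libraries of 17 h held 1, 1, 0 and 0 reads, against 13, 8, 12 and 10 reads in the controls. That is 2 reads against 43, a level of 4.73% of control with an exact 95% interval of 0.555 to 18.1% that covers counting error only. At 25 h there were 6, 6, 13 and 3 reads in DEX libraries and 20, 31, 24 and 29 reads in control libraries. The groups did not overlap at either time, and the level at 25 h was 26.5% of control (log2 fold change -1.92 ± 0.29). Replicate 3 was the highest DEX library of 25 h, and without it the log2 fold change was -2.42. Leaving out any 1 library gave a range of -2.42 to -1.69 at 25 h.

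The paralogs can share reads, which limits how far the pair can be told apart. Of the 50-base stretches of the Clca3b transcript, 6.68% also occur in another gene, mostly in Clca3a2, and of the 100-base stretches 0.608% do. For Clca3a2 the shares were 26.9% and 9.80%, mostly with Clca3a1, and the read length is not given in the sources used here. The other 5 members shared at most 0.214% of their 50-base stretches with any gene. Clca3b had 963 reads in the controls of 17 h and Clca3a2 43, and how many of the Clca3a2 reads stem from Clca3b was not tested.

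Gabrp, the receptor subunit, was the best-measured member. It had 2.96, 4.56, 3.23 and 3.15 CPM in DEX libraries at 17 h, against 31.6, 29.9, 28.6 and 28.7 CPM in control libraries. At 25 h the DEX libraries held 17.0, 16.7, 16.6 and 9.89 CPM and the controls 28.1, 31.1, 30.2 and 29.4 CPM. Control libraries lay between 28.1 and 31.6 CPM over both times, and DEX libraries lay wholly below them at each. The fold changes were -3.09 ± 0.14 at 17 h, or 11.7% of control, and -0.98 ± 0.11 at 25 h, or 50.7% of control.

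Chst4, the sulfotransferase, was close to Gabrp at 17 h and nearer to its controls at 25 h. It had 0.726, 0.697, 0.976 and 0.741 CPM in DEX libraries at 17 h, against 5.71, 5.58, 6.45 and 6.05 CPM in controls. At 25 h its DEX libraries held 4.87, 3.23, 4.22 and 2.14 CPM and its controls 4.65, 5.16, 5.29 and 6.77 CPM. The groups were apart at 17 h and overlapped at 25 h, where DEX replicate 1 lay above the lowest control. The level was 13.2% of control at 17 h (-2.91 ± 0.22) and 66.1% at 25 h (-0.60 ± 0.17).

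Vwa5b1 was close to Chst4 at 17 h and nearer to its controls at 25 h. Its DEX libraries held 0.302, 0.380, 0.488 and 0.370 CPM at 17 h, against 3.34, 3.12, 2.34 and 2.38 CPM in controls. At 25 h it had 2.64, 2.89, 3.04 and 2.75 CPM in DEX libraries and 4.04, 2.85, 2.95 and 4.28 CPM in controls, with overlapping groups. The level was 13.8% of control at 17 h (-2.83 ± 0.24) and 80.1% at 25 h (-0.32 ± 0.15).

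Blk, the Src-family kinase, kept a deep difference at both times. It had 0.786, 0.190, 0.366 and 0.370 CPM in DEX libraries at 17 h, against 2.44, 3.70, 3.31 and 2.67 CPM in controls. At 25 h the DEX libraries held 1.70, 1.21, 1.43 and 0.733 CPM and the controls 4.52, 3.09, 3.44 and 4.05 CPM. The groups did not overlap at either time, with 14.1% of control at 17 h (-2.79 ± 0.29) and 33.6% at 25 h (-1.56 ± 0.22). DEX replicate 1 of 17 h held the most reads of its group, and without it the fold change at 17 h was -3.26. With 1 library left out, whichever it was, the fold change at 17 h ranged from -3.26 to -2.56.

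Myh15, the myosin heavy chain, was read rarely, and its values are counts. There were 3, 1, 1 and 6 reads in DEX libraries at 17 h, against 23, 28, 23 and 32 in controls, or 11 reads against 106. At 25 h the DEX libraries held 23, 19, 27 and 8 reads and the controls 20, 23, 26 and 27, so the groups were apart at 17 h and overlapped at 25 h. The level was 10.5% of control at 17 h (-3.20 ± 0.40) and 78.1% at 25 h (-0.36 ± 0.27). Without DEX replicate 4 of 17 h the fold change at that time was -3.88. The range with any 1 library left out was -3.88 to -2.93.

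**Figure D1:**
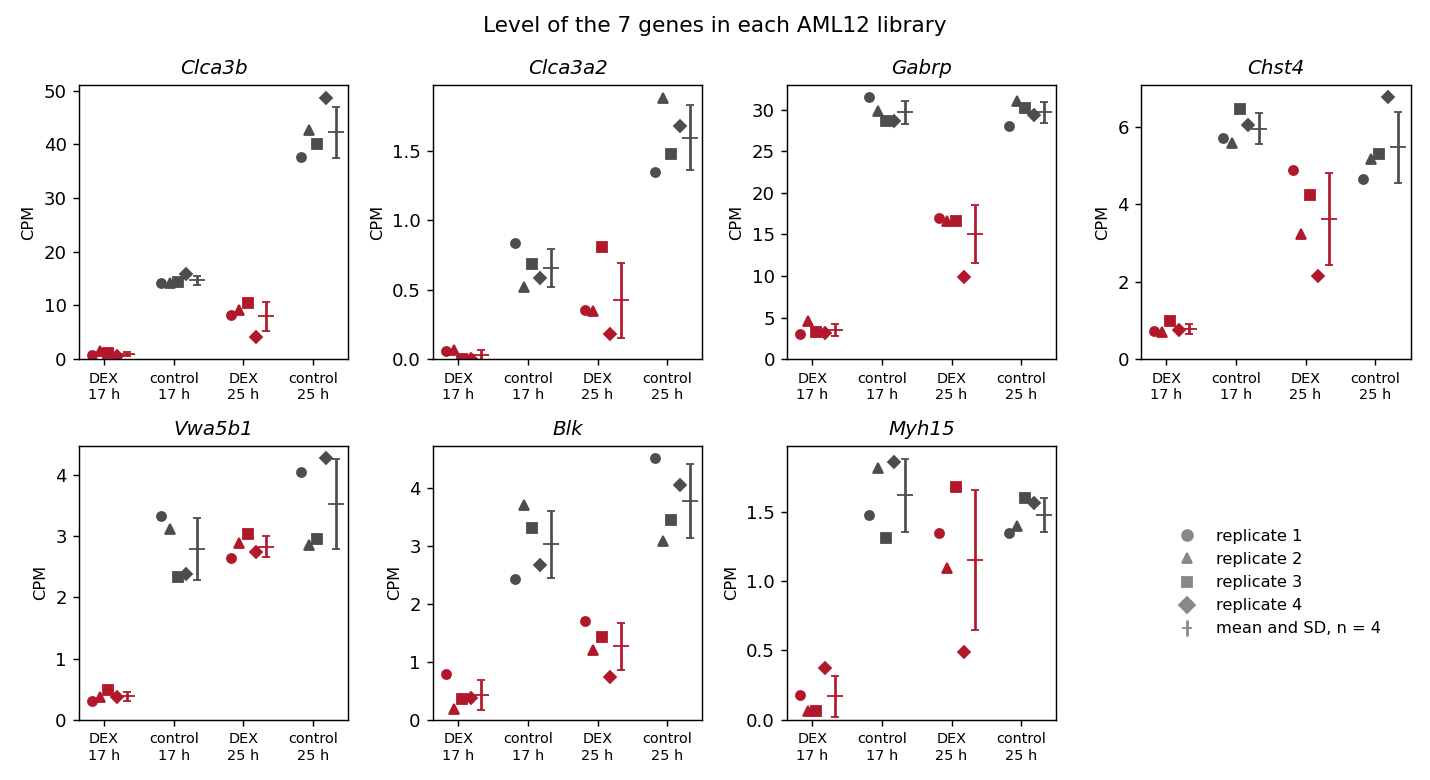
Level of each of the 7 genes in CPM (vertical axis, linear, a scale per panel) in the 4 DEX and 4 control libraries at 17 h and at 25 h; symbols are replicates, and the bar is the mean with SD (n = 4). DEX libraries lie below all controls of their time in 7 genes at 17 h and in 4 genes at 25 h, and the controls of Clca3b and Clca3a2 are higher at 25 h than at 17 h.

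At 17 h all DEX libraries lay below all controls in 7 of the 7 genes, where the rule had used this contrast; 15.8% of all tested genes had such groups. At 25 h this held for Clca3b, Clca3a2, Gabrp and Blk, 4 of 7, beside 8.46% of all tested genes; the choice could use either time, so nothing is read from this count. The median log2 fold change of the 7 genes was -3.09 at 17 h and -0.98 at 25 h, with medians of all tested genes of 0.0044 and 0.0018. Counted from the lowest fold change at 17 h, Clca3a2 and Clca3b ranked 3 and 4, Myh15 and Gabrp 7 and 8, Chst4 10, and Vwa5b1 and Blk 14 and 15. At 25 h Clca3b and Clca3a2 ranked 1 and 2 and Blk 5, while Gabrp ranked 39, Chst4 148, Myh15 478 and Vwa5b1 590. The choice had no fixed threshold: the next gene below Blk in the list of 17 h was Ntn1 at -2.76 ± 0.18, which is no member, and Adgrf1 at -2.90, Oacyl at -2.84 and Abca9 at -3.02 also lie among them without being members.

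**Figure D2:**
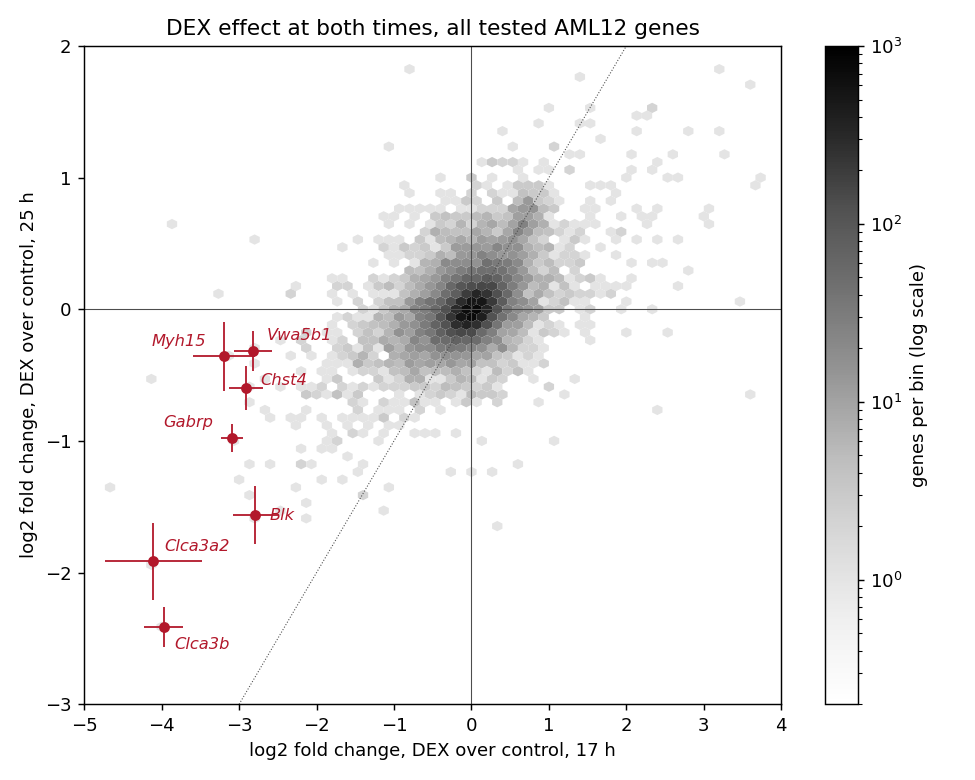
Log2 fold change of DEX over control at 17 h (horizontal) against 25 h (vertical) for the tested AML12 genes, as grey bins whose shade is the number of genes on a log scale, with the 7 genes as red points with SE bars; the dotted line marks equal change at both times, and 10 of the 14114 genes lie outside the axes. All 7 points lie left of the bulk of genes and above the dotted line, with Clca3b, Clca3a2 and Blk lowest at 25 h.

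As to what the cells are, AML12 libraries held Hnf4a at 205 and Apob at 154 CPM but Alb, the albumin gene, at 1.43 CPM, and the bile duct keratin Krt19 at 1700 CPM. These markers also differed with DEX at 17 h. At that time 38.4% of all tested genes passed the edgeR test at an adjusted p of 0.05, 17.9% lower and 20.5% higher. Of 7 tested hepatocyte markers 3 were higher and 3 lower, with a summed level of 280.9 to 293.7 CPM in DEX libraries and 382.3 to 419.3 CPM in control libraries. Among them Hnf4a was at -0.54 ± 0.04, Apob at -0.38 ± 0.07 and Alb at 1.41 ± 0.30 (adjusted p = 1.53e-10, 0.000130 and 0.000493 by edgeR). Of 5 tested bile duct markers 2 were higher and 2 lower, with a summed level of 3499 to 3714 CPM in DEX libraries and 3628 to 3821 CPM in control libraries. Here Krt7 was at 0.77 ± 0.04, Krt19 at 0.27 ± 0.04 and Spp1 at -0.75 ± 0.05 (adjusted p = 6.77e-13, 8.24e-06 and 4.91e-12 by edgeR). The part of these shifts in the differences of the 7 genes was not tested. HL-1 libraries held the muscle filament gene Des at 524 CPM and the gap junction gene Gja1 at 466 CPM, against 2.43 and 18.8 CPM in AML12; the lines were scaled separately, and no test was made between them. Tnnt2 and Gata4 were no higher in HL-1 than in AML12, at 34.5 and 18.1 CPM against 55.1 and 22.8 CPM, and the cardiac genes Myh6 and Nppa were near 0 in HL-1, at 0.0138 and 0.0170 CPM. Of 8 genes known to respond to glucocorticoids, 7 were higher in DEX cells at 17 h, beside 20.5% of all tested genes. Among the 8, Fkbp5 was at 1.77 ± 0.06, Sgk1 at 2.32 ± 0.07 and Nr3c1, the receptor gene, was lower at -0.27 ± 0.04 (adjusted p = 1.40e-17, 2.11e-18 and 4.41e-06 by edgeR). At 25 h 4 were higher and 1 lower, where 6.79% and 4.96% of all tested genes were. Sgk1 was then at 32.4 CPM in both DEX and control cells.

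From 17 h to 25 h the 7 genes differed in how near the DEX cells came to their controls. The DEX effect at 25 h minus that at 17 h was largest for Myh15 at 2.84 ± 0.51 and smallest for Blk at 1.23 ± 0.40 on the log2 scale. It was 2.51 ± 0.30 for Vwa5b1, 2.31 ± 0.29 for Chst4, 2.19 ± 0.80 for Clca3a2, 2.12 ± 0.18 for Gabrp and 1.56 ± 0.34 for Clca3b. Neighbours in this order lie within their SEs of each other, except Gabrp and Clca3b, and the ends of the order rest on 11 (Myh15) and 28 (Blk) reads in the DEX cells of 17 h. Within DEX cells every member was higher at 25 h than at 17 h, by log2 differences of 1.54 (Blk) to 3.47 (Clca3a2), and in 6 of the 7 genes, all but Blk, the 4 libraries of 25 h lay above the 4 of 17 h, as in 23.1% of all tested genes. The low values of 17 h had chosen the members, so nothing is read from these counts and differences.

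Among control cells, the CLCA pair alone of the 7 genes had groups that were apart between the times, with the libraries of 25 h above those of 17 h, as in 22.2% of all tested genes. Clca3b was 2.89-fold higher in control cells at 25 h than at 17 h (log2 1.53 ± 0.14), and Clca3a2 was 2.43-fold higher (1.28 ± 0.27). The other 5 genes differed by log2 values of -0.13 (Myh15) to 0.35 (Vwa5b1) between the times in control cells, with overlapping libraries. The low share of control that Clca3b and Clca3a2 kept at 25 h was measured against a control level that was itself higher. DEX cells of 25 h held 7.93 ± 2.74 CPM of Clca3b, against 14.6 ± 0.825 CPM in control cells of 17 h. These control libraries took part in the contrasts that chose the members, and Clca3a2 passed the filter only through those of 25 h. Nothing is read from these differences between the times.

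**Figure D3:**
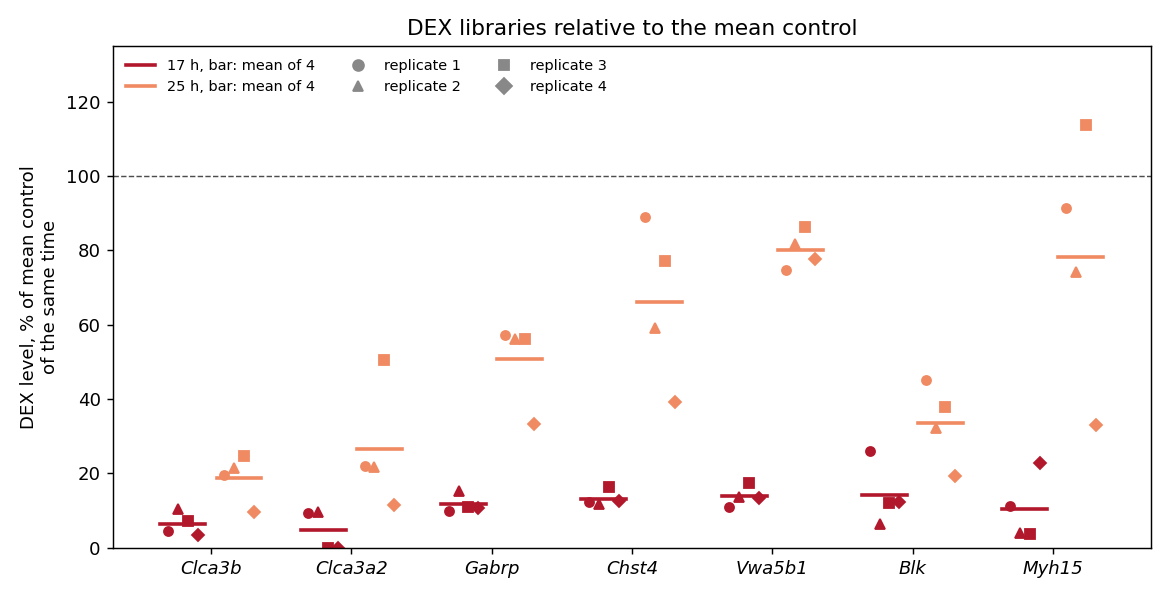
Level in each DEX library as a percentage of the mean control of the same time (vertical axis, linear) for each of the 7 genes at 17 h (dark) and 25 h (light); symbols are replicates, bars are means of 4, and the dashed line is the control mean. Means lie between 4.73 and 14.1% at 17 h and between 18.8 and 80.1% at 25 h, and replicate 4 is the lowest at 25 h in 6 of the 7 genes.

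Both DEX groups hold a library that stood apart from its replicates over all genes. When the counts of 2 DEX libraries of 17 h were compared over genes, chi-square divided by its degrees of freedom was 13.6 to 18.1 for pairs with replicate 2, against 2.41 to 4.00 for the others. At 25 h pairs with replicate 4 had 3.90 to 5.06 and the others 2.31 to 3.69. DEX replicate 4 of 25 h was the lowest of its group in 6 of the 7 genes, Vwa5b1 being the exception, while it was the lowest in 27.7% of all tested genes. In those 6 genes it held 35.5% (Myh15) to 58.9% (Gabrp) of the mean of the other 3 libraries, and for Vwa5b1 96.2%. Its part in the differences at 25 h can be read from the values without it: -2.21 for Clca3b, -1.69 for Clca3a2, -0.83 for Gabrp, -0.43 for Chst4, -0.32 for Vwa5b1, -1.39 for Blk and -0.12 for Myh15. Without DEX replicate 2 the values at 17 h were -4.31 for Clca3b, -4.57 for Clca3a2, -3.25 for Gabrp, -2.87 for Chst4, -2.82 for Vwa5b1, -2.56 for Blk and -2.95 for Myh15.

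The profiles over the 16 AML12 libraries were also compared, as the root mean square difference of centred log2 CPM among 11474 genes with a regular symbol. The gene nearest to Gabrp was Chst4, at 0.291, and the reverse held too. Ntn1, which encodes the guidance protein netrin 1, was the second nearest to Gabrp (0.357) and to Chst4 (0.322) and the nearest to Vwa5b1 (0.257), ahead of Slc13a2os (0.264). Ntn1 had 0.754 ± 0.0816 CPM in DEX cells at 17 h, against 5.17 ± 0.288 CPM in control cells. Clca3b was nearest to Clca3a2 (0.790) and then to Agt, the angiotensinogen gene (0.850). For Clca3a2 the nearest were Ccl3 (0.424) and Gc, the vitamin D binding protein gene (0.467). Blk was nearest to Adgrf1 (0.430) and the chemokine gene Ccl5 (0.465), and Myh15 to Chst4 (0.395) and Nrep (0.416). These distances describe likeness in the libraries that chose the members and include counting noise, which is large for Clca3a2 and Myh15.

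Pooled over the 7 family and pathway lists, relatives of the 7 genes were both higher and lower in DEX cells. In the CLCA and GABA-A lists 0 of the 2 tested relatives each passed at either time. Of 142 relatives listed, 113 were used here and 62 were tested. At 17 h 25 of 62 (40.3%) passed at an adjusted p of 0.05 (edgeR quasi-likelihood test, Benjamini-Hochberg over all genes), close to the 38.4% of all tested genes. Of these, 14 were lower and 11 higher in DEX cells, where 17.9% and 20.5% of all tested genes were. At 25 h 8 of 62 (12.9%) passed, beside 11.7% of all tested genes, with 6 lower and 2 higher, where 4.96% and 6.79% of all tested genes were. The median log2 fold change of the tested relatives was -0.06 at 17 h and -0.05 at 25 h. The lists were drawn up with earlier results of these data known.

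In the CLCA family, 2 of the 5 other members were tested and 0 passed by edgeR or DESeq2 at either time, while 1 had an unadjusted p below 0.05 at 17 h and 0 at 25 h. Clca1, the secreted family member of goblet cells, had 11.1 CPM in DEX cells and 12.8 CPM in control cells at 17 h (-0.21 ± 0.09, adjusted p = 0.0600 by edgeR). At 25 h it had 18.8 CPM in DEX cells and 18.2 CPM in control cells (adjusted p = 0.779 by edgeR). Clca4a was near the limit of detection, with a log2 fold change of -0.41 ± 0.28 at 17 h (adjusted p = 0.266 by edgeR). Clca2, Clca3a1 and Clca4b were not tested, at 0.0145, 0.342 and 0.0597 CPM over the 16 libraries. Clca3a1, with 90 reads in all, had 0.117 to 0.305 CPM in DEX libraries at 25 h, against 0.492 to 0.741 CPM in controls. Its groups overlapped at 17 h, at 0.127 to 0.244 CPM in DEX libraries and 0 to 0.523 CPM in controls. How many of these reads stem from its paralogs was not tested. Clca1 and Clca4a lie in the same cluster as Clca3b on chromosome 3, within 183 kb of it between gene starts. Of the 6 mucous cell markers used here, 4 were under 1 CPM. Muc5ac rose by 1.44 ± 0.16 at 17 h (adjusted p = 5.37e-08 by edgeR), and Muc5b was at 111 CPM in DEX cells and 93.4 CPM in control cells (adjusted p = 0.0512).

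Chloride channels, the other proteins of chloride transport, gave 4 higher and 2 lower of 20 tested at 17 h. The shares of all tested genes were 20.5% higher and 17.9% lower. At 25 h 0 of 20 passed by edgeR and 1 by DESeq2, with 3 at an unadjusted p below 0.05. Ano8 fell by 0.40 ± 0.05 and Clcn4 by 0.29 ± 0.04, while Clcn6 rose by 0.27 ± 0.04 and Clic4 by 0.14 ± 0.04 at 17 h (adjusted p = 1.31e-06, 7.94e-06, 1.87e-05 and 0.0115 by edgeR). The Clic4 call was lost without DEX replicate 2 of 17 h (adjusted p = 0.0562). Ano1, the calcium-activated chloride channel on which CLCA1 acts, had 269 CPM in DEX cells and 268 CPM in control cells at 17 h (adjusted p = 0.945 by edgeR). Of 26 GABA-A receptor and GABA handling genes, 13 were used here and 2 were tested, with 0 passed by edgeR or DESeq2 and 0 at an unadjusted p below 0.05 at either time. Gabre, the epsilon subunit and the only other subunit tested, had 32.9 CPM in DEX cells and 32.2 CPM in control cells at 17 h (0.03 ± 0.08, adjusted p = 0.830 by edgeR), and 32.2 CPM in DEX cells against 33.4 CPM in control cells at 25 h. Gabra3 and Gabrb1, subunits of the alpha and beta classes from which neuronal receptors are built, were at 0.0074 and 0.261 CPM.

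Among the carbohydrate sulfotransferases and their sulfate donor synthases, 3 rose and 2 fell of 11 tested at 17 h. Over all tested genes 20.5% rose and 17.9% fell. At 25 h 0 passed by edgeR and 1 by DESeq2, with 4 at an unadjusted p below 0.05. Chst13 and Chst8, which sulfate N-acetylgalactosamine, rose by 0.70 ± 0.10 and 0.74 ± 0.15 at 17 h (adjusted p = 3.55e-06 and 0.000333 by edgeR). Papss2, a synthase of the sulfate donor, fell by 0.41 ± 0.10 and Hs3st1, a heparan sulfate sulfotransferase, by 0.31 ± 0.09 (adjusted p = 0.00295 and 0.00763 by edgeR). Chst5, which also acts on N-acetylglucosamine, was at 0.0074 CPM over the 16 libraries. Of 9 tested VWA domain genes, 2 rose and 2 fell at 17 h, beside the same 20.5% and 17.9% of all tested genes. Itih2, a plasma inhibitor heavy chain, rose by 1.66 ± 0.18 at 17 h and by 0.91 ± 0.18 at 25 h (adjusted p = 6.86e-08 and 0.00134 by edgeR). Vwa5b2, the closest listed relative of Vwa5b1 by name, was not tested, at 0.0378 CPM over the 16 libraries. Vwa5a fell by 0.44 ± 0.06 and Vwa2 by 1.31 ± 0.35 at 17 h (adjusted p = 6.47e-07 and 0.00424 by edgeR). Vwa8 was 0.13 ± 0.05 higher (adjusted p = 0.0464 by edgeR), a call lost in 12 of 16 alternative settings. At 25 h Vwa7 fell by 0.51 ± 0.16 (adjusted p = 0.0408 by edgeR), a call lost in 8 of 16 alternative settings.

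Of the kinases related to Blk, 7 of 9 tested (77.8%) passed at 17 h, 6 lower and 1 higher. That stands beside 38.4% of all tested genes, 17.9% lower and 20.5% higher. The list was drawn up with earlier results of these data known, so nothing is read from this count. Tec fell by 0.93 ± 0.08, Frk by 0.48 ± 0.05, Lyn by 0.39 ± 0.07 and Src by 0.34 ± 0.05 at 17 h (adjusted p = 1.98e-09, 1.20e-08, 4.05e-05 and 9.35e-06 by edgeR). At 25 h 2 of 9 passed, beside 11.7% of all tested genes. They were Lyn at -0.27 ± 0.07 and Src at -0.16 ± 0.05 (adjusted p = 0.00596 and 0.0465 by edgeR). The Src call was lost in 7 of 16 alternative settings, for example without DEX replicate 4 (adjusted p = 0.150 by edgeR). Zap70, a T cell kinase named here after its value was seen, had 0.432 CPM in DEX cells and 1.17 CPM in control cells at 17 h (-1.41 ± 0.29, adjusted p = 0.000384 by edgeR). These differences were smaller than that of Blk, at -2.79, a gene chosen for its large fall. The blood cell kinases Lck, Fgr and Btk were under 1 CPM. Of the 5 B cell markers used, 4 were under 1 CPM, among them Cd79a at 0.364, Pax5 at 0.0263 and Ms4a1 at 0.0116 CPM. Blnk, the adaptor of B cell receptor signalling, was the exception. It had 27.2 CPM in DEX cells and 39.7 CPM in control cells at 17 h (-0.54 ± 0.07, adjusted p = 8.35e-07 by edgeR). At 25 h it had 29.3 CPM in DEX cells and 36.8 CPM in control cells (-0.33, adjusted p = 0.00181 by edgeR). Among leukocyte and macrophage markers, Ptprc, the gene of the pan-leukocyte protein CD45, was at 0.126 CPM and Itgam at 0.0199 CPM. Cd68, Csf1r and Cd14 were at 3.43, 7.25 and 181 CPM. Cd14 fell by 0.61 ± 0.04 and Csf1r by 0.45 ± 0.12 at 17 h (adjusted p = 1.19e-11 and 0.00330 by edgeR). At 25 h they were higher, by 0.14 ± 0.04 and 0.62 ± 0.10 (adjusted p = 0.0155 and 0.000124 by edgeR).

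Myosin II heavy and light chains gave 1 higher and 2 lower of 9 tested at 17 h and 1 higher and 3 lower at 25 h. Over all tested genes 20.5% were higher and 17.9% lower at 17 h, and 6.79% and 4.96% at 25 h. Myh9, the main non-muscle heavy chain, fell by 0.25 ± 0.05 at 17 h and by 0.27 ± 0.05 at 25 h (adjusted p = 0.000438 and 0.000735 by edgeR). Mylk, the kinase of the regulatory light chain, rose by 0.15 ± 0.04 and 0.21 ± 0.04 at these times (adjusted p = 0.00239 and 0.000275 by edgeR). Myl6 fell by 0.21 ± 0.06 at 17 h, and Myl12a fell by 0.25 ± 0.04 at 25 h (adjusted p = 0.00493 and 0.000105 by edgeR). Myl6 also passed at 25 h, at -0.18 ± 0.06 (adjusted p = 0.0346 by edgeR), a call lost in 7 of 16 alternative settings. The striated muscle heavy chains Myh3, Myh4, Myh6, Myh7 and Myh13 were each under 1 CPM.

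**Figure D4:**
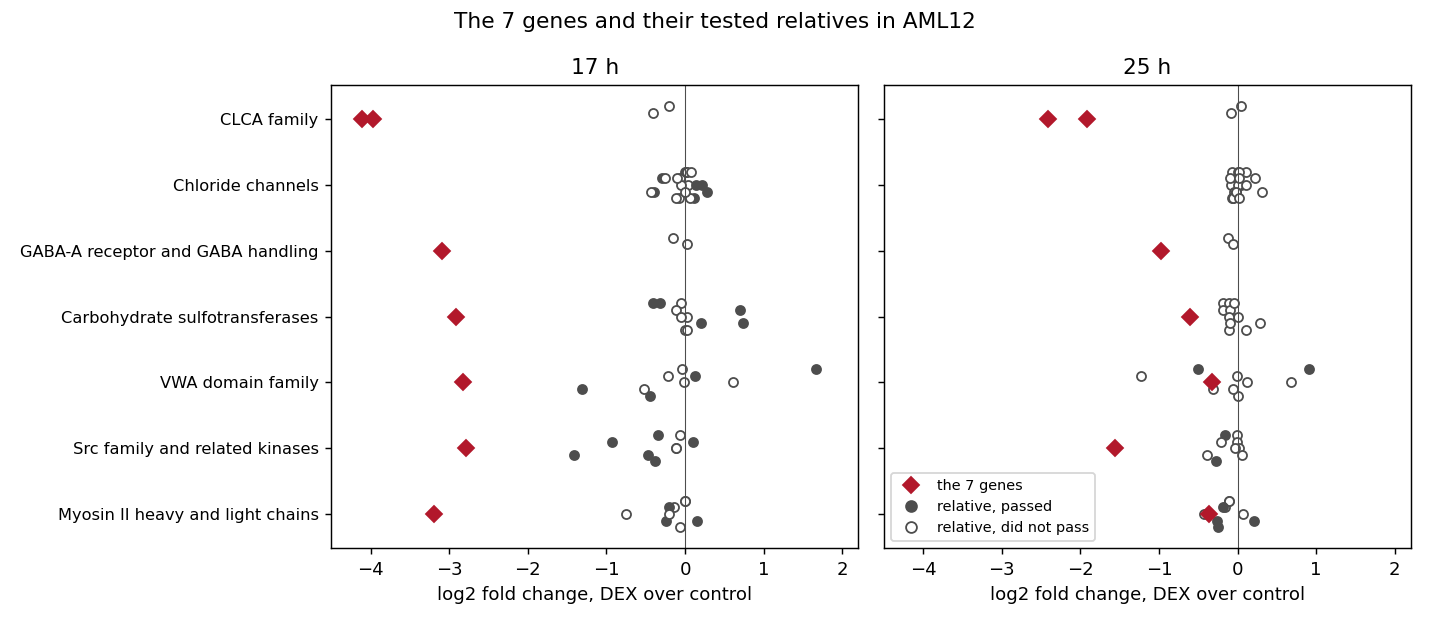
Log2 fold change of DEX over control (horizontal) at 17 h (left) and 25 h (right) for the 7 genes (red diamonds) and their tested relatives in 7 lists (circles, filled where the edgeR test passed at an adjusted p of 0.05); the vertical offset of circles carries no value. The 7 genes lie far to the left of their relatives at 17 h, where the lowest relative, Zap70, is at -1.41. The 7 were chosen for large falls, so nothing is read from this gap.

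The genomic neighbours gave another view, since the rule did not use them. The 3 nearest tested genes on each side of each member, by gene start, made 36 genes with a median distance of 232 kb. At 17 h 14 of the 36 passed, 6 higher and 8 lower in DEX cells, or 38.9% beside 38.4% of all tested genes, and at 25 h 4 passed, 1 higher and 3 lower, or 11.1% beside 11.7%. The median of the neighbours was -0.06 at 17 h and -0.01 at 25 h. Of the 36 neighbours, 3 passed and fell at least 2-fold at 17 h, beside 2.23% of all tested genes. All 3 lie on the higher-coordinate side of Gabrp.

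D130052B06Rik (chr11:33599302-33625618, plus strand) starts 20.3 kb from the start of Gabrp and is transcribed away from it. It had 0.907, 1.33, 0.915 and 1.30 CPM in DEX libraries at 17 h, against 5.65, 5.13, 4.34 and 5.47 CPM in controls, with no overlap. Its log2 fold change was -2.20 ± 0.19 at 17 h (adjusted p = 1.77e-09 by edgeR). At 25 h it had 6.34, 8.02, 6.83 and 5.13 CPM in DEX libraries and 10.5, 9.83, 9.47 and 7.41 CPM in controls, and the fold change was -0.49 ± 0.13 (adjusted p = 0.0108 by edgeR; 0.0511 without DEX replicate 4).

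Beyond it, Kcnip1 and Gm12119 behaved likewise; these genes are outside the rule for named genes and were chosen after their values were seen. Kcnip1 (chr11:33629339-33993152, minus strand), which encodes a potassium channel interacting protein, starts 414 kb from the start of Gabrp. It had 0.363, 0.444, 0.305 and 0.494 CPM in DEX libraries at 17 h, against 1.93, 2.34, 1.54 and 1.40 CPM in controls. The groups did not overlap, at -2.13 ± 0.30 (adjusted p = 3.49e-06 by edgeR). Gm12119 (chr11:33695894-33697908, plus strand) is annotated as an antisense RNA inside Kcnip1. It had 0.302, 0.190, 0.366 and 0.432 CPM in DEX libraries, against 2.05, 1.56, 2.00 and 2.50 CPM in controls, at -2.63 ± 0.30 (adjusted p = 1.60e-07 by edgeR). Since the strand setting of the counting is not given in the sources used here, reads of Kcnip1 and Gm12119 cannot be told apart where these genes overlap.

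At 25 h Gm12119 was at -0.80 ± 0.18 (adjusted p = 0.00275 by edgeR) and Kcnip1 at -0.30 ± 0.20 (adjusted p = 0.412). The DEX effect was smaller at 25 h than at 17 h in all 3 genes, by log2 differences of 1.71 ± 0.24 for D130052B06Rik, 1.82 ± 0.37 for Gm12119 and 1.84 ± 0.37 for Kcnip1 (adjusted p = 9.75e-06, 0.000944 and 0.000981 by edgeR). Such a difference between the times passed in 16.2% of all tested genes. These stand beside 2.12 ± 0.18 for Gabrp itself. On the other side the nearest tested gene, Npm1, which encodes nucleophosmin, starts 416 kb away and was at -0.20 ± 0.04 at 17 h (adjusted p = 0.00103 by edgeR), with 684 CPM in DEX cells and 783 CPM in control cells. Within 500 kb of the Gabrp start, a window also chosen after the values were seen, 16 genes are annotated, 10 of them are in the table and 5 were tested: Gabrp, these 3 and Npm1. The table's untested gene Ranbp17, which ends closest to Gabrp on that side, held 1 read over the 16 libraries.

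The neighbours of the other members showed smaller differences. Fam167a, 19.4 kb from Blk and transcribed away from it, was at -0.89 ± 0.29 at 17 h (adjusted p = 0.0178 by edgeR), a call lost without control replicate 2 (adjusted p = 0.098) or DEX replicate 3 (0.0714) of 17 h. On the other side of Blk, Gata4 was at 0.14 ± 0.08 (adjusted p = 0.160 by edgeR). Camk2n1, 182 kb from Vwa5b1 and known as an inhibitor of a calmodulin-dependent kinase, fell by 0.80 ± 0.09 at 17 h (adjusted p = 5.51e-08 by edgeR), and Otud3 on the other side was at 0.15 ± 0.09 (adjusted p = 0.188). Beside the CLCA pair, Sh3glb1 was 0.20 ± 0.06 higher at 17 h (adjusted p = 0.0123 by edgeR; 0.0581 without DEX replicate 2), and Gm35066 was at -0.15 ± 0.13 (adjusted p = 0.416). Tat, the glucocorticoid-inducible tyrosine aminotransferase gene next to Chst4, was at -0.73 ± 0.39 (adjusted p = 0.147 by edgeR) at 0.527 CPM, and Cmtr2 was 0.22 ± 0.07 higher (adjusted p = 0.0168), a call lost in 3 of 16 alternative settings. Next to Myh15, C330027C09Rik rose by 0.53 ± 0.07 at 17 h and by 0.62 ± 0.08 at 25 h (adjusted p = 1.78e-06 and 3.23e-06 by edgeR), and Ift57 was at -0.15 ± 0.08 (adjusted p = 0.117).

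**Figure D5:**
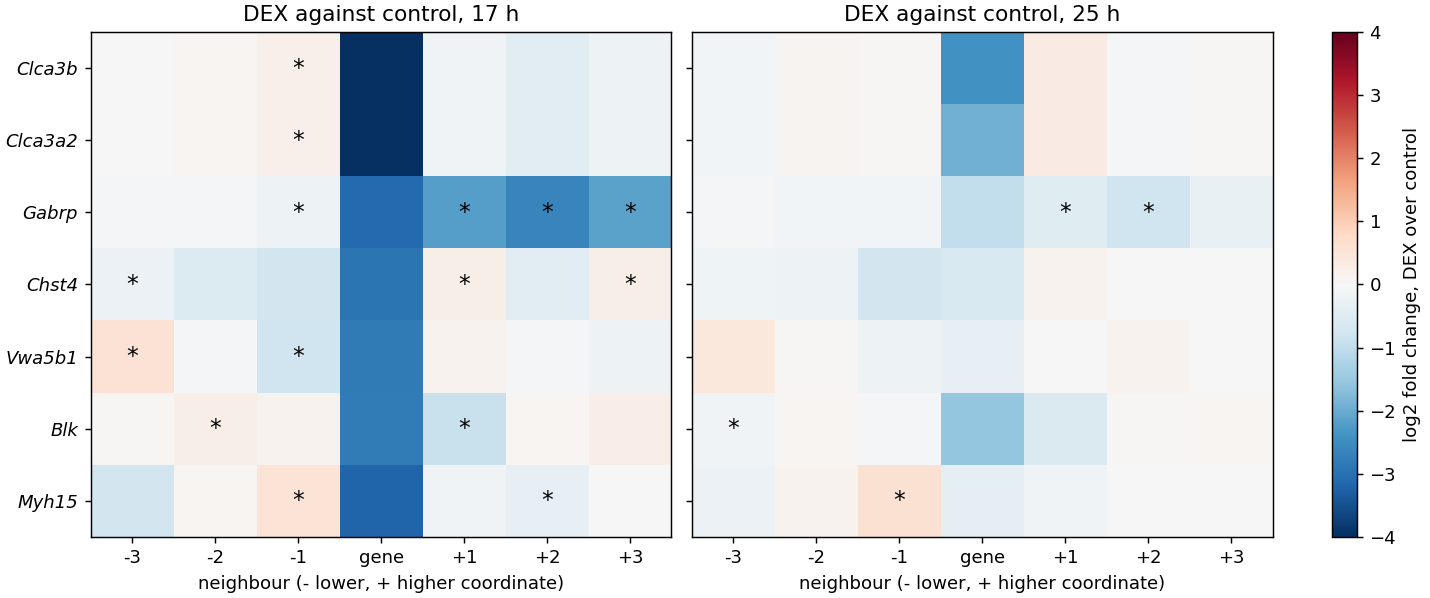
Log2 fold change of DEX over control (colour) at 17 h (left) and 25 h (right) for each of the 7 genes (middle column) and the 3 nearest tested genes on its lower and higher coordinate side; a star marks a neighbour that passed the edgeR test at an adjusted p of 0.05, the 7 genes carry no test, and Clca3b and Clca3a2 share their neighbours. The 3 neighbours on the higher side of Gabrp are at -2.13 to -2.63 at 17 h, whereas no other neighbour is below -0.89.

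HL-1 libraries, which the choice had not used, held too few reads of the 7 genes for a test, and 0 of the 7 passed the low-count filter there. Clca3b had 59 reads over the 16 libraries, 11 in CM and 8 in control medium at 16 h, and 24 in CM and 16 in control medium at 28 h. Clca3a2 had 9 reads, Myh15 6 and Gabrp 1, and Chst4, Vwa5b1 and Blk had 0 reads in 16 libraries. A count of 0 over the 4 CM libraries of 16 h allows a level of up to 0.0404 CPM, counting error only. Among all tested HL-1 genes 2.03% passed at 16 h and 1.92% at 28 h. Clca2 and Clca3a1, which were scarce in AML12, were read in HL-1 at 2.52 and 2.41 CPM over its 16 libraries, and Clca1 was at 3.36 CPM there.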

How the data were processed

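The deposited tables, 1 per cell line, hold read counts per gene that the authors left unnormalized, as their differing totals show. Per the submitters' processing notes, FastQC 0.11.8 and STAR were used with mm10 and GRCm38; the counter, its strand setting and the annotation are not stated there. Of the gene IDs, 99.7% in AML12 and 94.0% in HL-1 were in GENCODE M21, which gave positions and exonic lengths.

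Each line was fitted over its 16 libraries with edgeR 4.0.16 in R 4.3.3, using filterByExpr by group (minimum count 10), TMM scaling, 1 mean per group and the quasi-likelihood test. A gene was called where its p, adjusted by Benjamini-Hochberg among the 14114 (AML12) or 14450 (HL-1) tested genes, was under 0.05. The SE is the log2 fold change divided by the root of F. Ratios with few reads have exact 95% intervals, and 0 reads are set against 3 reads over the group. The fit was checked on simulated counts.

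The 7 genes, the gene lists and the rule for named genes were chosen with earlier results of these data known. The rule took all 7, up to 4 called genes per family list and time with the smallest p, the nearest tested gene on each side, the 2 most alike profiles and the listed markers; other named genes were picked after their values were seen. Alternatives were RLE factors, total counts, no filter, DESeq2 1.42.0, limma-voom 3.58.1, a replicate block, the 8 compared libraries only, and each library left out. The main fit did not pair libraries of equal replicate number.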

Additional observations from a re-analysis of the deposited data

Results flagged for a closer look

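In 4 of the 28 groups of 4 libraries examined for the 7 genes, 1 library lay far from the other 3; about 1 in 20 such groups does so by chance. Gabrp had 4.56 CPM in DEX replicate 2 of 17 h, with the others at 2.96 to 3.23 CPM, and 9.89 CPM in DEX replicate 4 of 25 h, with the others at 16.6 to 17.0 CPM. Chst4 had 0.976 CPM in DEX replicate 3 of 17 h, with the others at 0.697 to 0.741 CPM. Clca3b had 15.9 CPM in control replicate 4 of 17 h, with the others at 14.2 to 14.3 CPM. Both Gabrp libraries are the ones that stood apart over all genes.

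The DEX effect differed between the times, by the edgeR test of the difference itself, in 12 of the 35 relatives and neighbours examined. It did so in 16.2% of all tested genes; many of the 35 had been named for a call at 1 of the times, which favours such a difference. The log2 effect at 25 h minus that at 17 h was 1.84 in Kcnip1, 1.82 in Gm12119 and 1.71 in D130052B06Rik, the 3 genes beside Gabrp. It was 0.73 in Tec, 0.59 in Camk2n1, 0.53 in Frk, 0.45 in Vwa5a, 0.36 in Ano8 and 0.20 in Clcn4, which all fell at 17 h. It was -0.89 in Chst13 and -0.29 in Clcn6, which rose at 17 h, and -0.19 in Myl12a, which fell at 25 h.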

How the results depend on the processing

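In all, 106 results were recomputed in 1763 alternatives under 40 settings. For the 35 results of the 7 genes, 581 alternatives stayed within the spread between replicates and 25 moved, with no change of direction among called values; those that moved belong to Clca3a2, Blk, Myh15, Clca3b and Gabrp. The median log2 fold change of the 7 genes ranged from -3.23 to -2.95 at 17 h and from -1.06 to -0.83 at 25 h with 1 library left out. Clca3a2 at 17 h ranged from -4.57 to -3.77 in the same way and was -3.66 by limma-voom. With DEX replicate 2 of 17 h and DEX replicate 4 of 25 h both left out, chosen after seeing the data, 7 neighbours passed at 25 h in place of 4. With 1 library left out, 5 to 8 relatives passed at 25 h (8 in full, 5 without DEX replicate 3), and 170 to 334 HL-1 genes passed at 28 h (278 in full, 170 without CM replicate 3, 179 without control replicate 1). The replicate block gave 5369 genes at 17 h and 1633 at 25 h in AML12, against 5419 and 1658 without the block. Deviations of same-numbered DEX and control libraries correlated at -0.0598 to 0.108 at 17 h and 0.0264 to 0.0778 at 25 h. For libraries of unlike number the ranges were -0.125 to 0.103 and -0.0537 to 0.0296, so at 25 h most same-numbered pairs lay above all others. Single relatives or neighbours lost their call in 42 alternatives, mostly Vwa8, Vwa7, Src and Myl6, and gained one in 14. Depth limits Clca3a2 and Myh15, which had 2 and 11 reads in DEX cells at 17 h, and the 7 genes in HL-1.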
